A study of Mus musculus with 6 samples.

Results

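The genes described here encode 10 enzymes that build triglycerides and the major membrane phospholipids from glycerol 3-phosphate. They are *Gpam*, *Lpin1*, *Lpin2*, *Dgat1*, *Dgat2*, *Chka*, *Etnk1*, *Pcyt1a*, *Pcyt2* and *Cdipt*. They were chosen by gene symbol for their place in these pathways, with earlier results of these data known. All 10 were found among the 24015 genes of the count files, and all 10 passed the filter on low counts that left 11371 genes for testing.

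RNA-Seq had been performed on whole sciatic nerves at postnatal day 14 to find out how gene expression changes when Schwann cells lose Rnf40, a subunit of the E3 ligase that attaches ubiquitin to histone H2B. Control mice carried floxed *Rnf40* alleles (Rnf40 fl/fl, labelled ctrl), and Rnf40ΔSC mice carried the *Dhh::Cre* transgene in addition (Dhh::Cre, Rnf40 fl/fl, labelled cko). There were 3 libraries per genotype, labelled as biological replicates, and each was made from a pool of 3 nerves. The labels give a mixed 129SvJ/C57Bl/6J background for all libraries, whereas the methods name C3H in place of 129SvJ. *Dhh::Cre* is active in the Schwann cell lineage, and the paper saw Rnf40 kept in other cells of embryonic spinal nerve. Fibroblasts, endothelial cells, immune cells and other cells of the nerve also contribute to the RNA. Whether each of these kept *Rnf40* at postnatal day 14 was not tested here. Reads counted on genes totalled 1317167, 1992622 and 2468765 in control replicates 1 to 3. In Rnf40ΔSC replicates 1 to 3 they totalled 2184268, 1459387 and 2186710.

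Glycerolipid synthesis begins with the acylation of glycerol 3-phosphate to phosphatidate. Phosphatidate is either dephosphorylated to diacylglycerol, the precursor of triglyceride, phosphatidylcholine and phosphatidylethanolamine, or activated to CDP-diacylglycerol, the precursor of phosphatidylinositol and cardiolipin. In the Kennedy pathway choline and ethanolamine are each phosphorylated, activated to CDP-choline or CDP-ethanolamine, and transferred as the phosphorylated base to diacylglycerol. Schwann cells that form myelin make large amounts of membrane in this way, and ethanolamine plasmalogens are abundant in myelin.

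The deleted gene was examined first. *Rnf40* had 127, 123 and 138 normalized counts in control replicates 1 to 3 and 87.7, 87.9 and 91.5 in the Rnf40ΔSC replicates, where a normalized count is a read count scaled by TMM to a common library size. Every Rnf40ΔSC library lay below every control library. Expressed as log2 fold change of Rnf40ΔSC against control, this was -0.54 (SE 0.14, adjusted p = 0.00242 by edgeR with Benjamini-Hochberg adjustment). With total-count scaling it was -0.27, with an adjusted p of 0.12 by edgeR (range over all alternatives 0.00235 to 0.12). The counts cover the whole gene and not the floxed exons alone. In RNA from whole nerve, fewer cells of a type and less RNA per cell cannot be told apart. The paper also counted cells in stained nerve sections of the same age. It found slightly more cells in Rnf40ΔSC nerves, a comparable share of Schwann cells and a higher share of macrophages.

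Markers of other cells set some libraries apart. The 13 skeletal muscle genes summed to 9589, 7297 and 5412 normalized counts in control replicates 1 to 3 and to 201, 538 and 6920 in the Rnf40ΔSC replicates. Rnf40ΔSC replicate 3 thus lay within the control range, far above the other libraries of its genotype. The most abundant of these genes, *Myh4*, was read 1711, 1657 and 1571 times in the controls and 58, 46 and 1473 times in Rnf40ΔSC libraries. None of the 13 was at 0 in any library, and 0 of 13 passed edgeR's test, by adjusted or unadjusted p, or DESeq2.

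The 10 adipocyte genes summed to 2363, 1751 and 3026 normalized counts in control and to 1829, 1676 and 1359 in Rnf40ΔSC replicates 1 to 3. The ranges overlapped, since control replicate 2 lay below Rnf40ΔSC replicate 1. *Fabp4*, the most abundant, was read 1051, 1148 and 2548 times in the controls and 1789, 1082 and 1257 times in Rnf40ΔSC libraries. The brown fat gene *Ucp1* was read 0, 1 and 47 times in the controls and 1, 2 and 22 times in Rnf40ΔSC replicates, and it was the only gene of the list with a 0 in any library. Of the 9 adipocyte genes tested, 5 fell and 0 rose in edgeR's test, beside 16.2% and 15.4% of all genes. With total-count scaling 4 fell and 0 rose, beside 880 and 3766 of all 11371 genes.

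Schwann cell markers were abundant in all libraries. The 5 genes reported summed to 2630, 2970 and 2828 normalized counts in control and to 1963, 1810 and 1971 in Rnf40ΔSC replicates, and none was at 0 in any library. *Sox10*, which marks the whole lineage and was the most abundant of them, had 931, 1025 and 1053 normalized counts in control and 612, 558 and 576 in Rnf40ΔSC libraries. Its log2 fold change was -0.79 (SE 0.091, adjusted p = 8.8e-09 by edgeR with Benjamini-Hochberg adjustment), with all 3 Rnf40ΔSC libraries below all controls. A further 2 genes of the list as planned are left out of these sums and counts, for a reason other than their values, so that they describe only part of the list. Of the 5 genes 4 fell and 1, the transcription factor gene *Egr2*, rose by 0.36 on the log2 scale. Among all genes tested 16.2% fell and 15.4% rose.

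Markers of fibroblasts, endothelium and macrophages had lower sums after TMM scaling. Fibroblast genes, led by *Col1a2*, summed to 53980, 52547 and 57371 normalized counts in control and 40348, 37930 and 39242 in Rnf40ΔSC replicates, and 4 of 5 fell. Endothelial genes, led by *Cdh5*, summed to 1208, 1098 and 1257 in control and 795, 763 and 945 in Rnf40ΔSC replicates, and 4 of 5 fell. Macrophage genes, led by *Csf1r*, summed to 549, 435 and 499 in control and 335, 329 and 353 in Rnf40ΔSC replicates, and 3 of 5 fell. The paper's macrophage counts in sections, given above, went the other way. With total-count scaling 1 fibroblast gene fell and 1 rose, 0 of 5 endothelial genes were called, and 2 of 5 macrophage genes fell. With TMM scaling 16.2% of all genes tested fell and 15.4% rose, and with total-count scaling 880 and 3766 of all 11371 did. In these 3 lists no gene was at 0 in any library. The part of these shifts in the values of the enzyme genes was not tested.

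**Figure D1:**
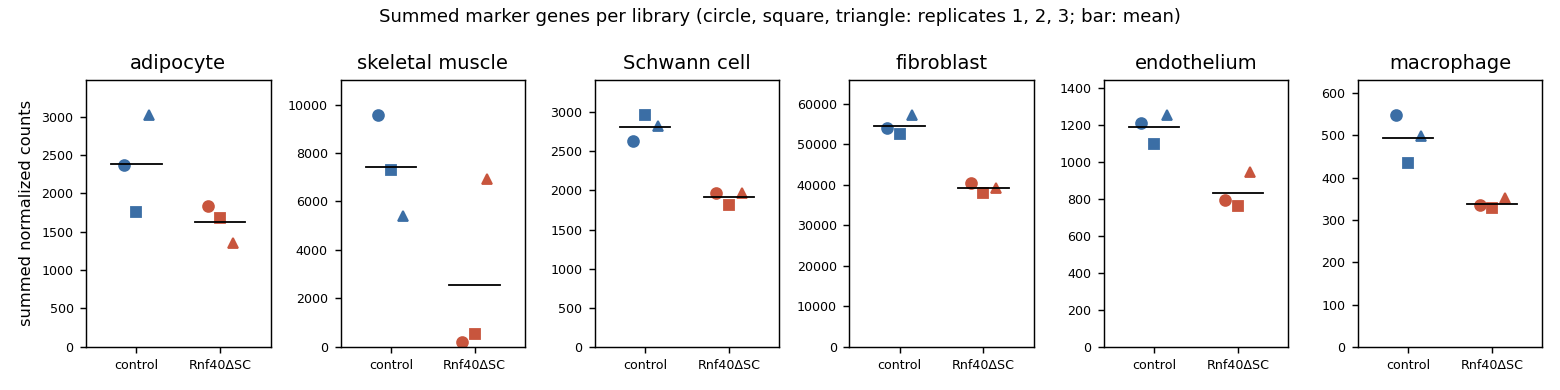
Summed TMM-normalized counts of marker genes for 6 cell types in each library; the horizontal axis gives the genotype, symbols stand for replicates 1, 2 and 3, and bars for group means; the Schwann cell panel leaves out 2 genes of its list. Schwann cell, fibroblast, endothelial and macrophage sums separate the genotypes, and the skeletal muscle sum of Rnf40ΔSC replicate 3 (6920) lies among the controls.

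Among the enzyme genes, *Pcyt2*, which activates ethanolamine, fell 3.82-fold in Rnf40ΔSC nerves after TMM scaling. *Etnk1*, the ethanolamine kinase gene, fell 1.64-fold, *Cdipt*, for phosphatidylinositol synthesis, 1.46-fold and *Pcyt1a*, which activates choline, 1.27-fold. The genes for the acylation of glycerol 3-phosphate, for lipins, for triglyceride assembly and for choline kinase did not pass the test.

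In numbers, 4 of the 10 genes fell and 0 rose with an adjusted p no higher than 0.05 (quasi-likelihood test of edgeR, Benjamini-Hochberg adjustment over all genes tested). Of all 11371 genes tested, 16.2% fell and 15.4% rose by this rule. No member rose by unadjusted p or with DESeq2 either, and DESeq2 called 3 of 10 lower, without *Pcyt1a*. By the limits of the study, which also ask for a log2 fold change of at least 0.8 in size and a base mean (the average normalized count over all libraries) of at least 20, 1 of 10 fell and 0 rose, where 4.99% and 3.65% of all genes did. The libraries of the genotypes did not overlap for 4 members lower in Rnf40ΔSC, against 21.6% of all genes, and for 1 member higher, against 22.0%. The median log2 fold change of the 10 genes was -0.24, compared with -0.0026 over all genes tested. Since the genes were chosen with earlier results of these data known, these comparisons only describe them.

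Scaling bears on these numbers. The use of total counts in place of TMM raises the median log2 fold change of all genes by 0.27. Under it only *Etnk1* and *Pcyt2* of the 10 genes were called lower (2 genes) and *Lpin1* was called higher (1 gene), while of all 11371 genes 880 fell and 3766 rose. Without control replicate 3 the number of members called lower was also 2, the same pair.

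**Figure D2:**
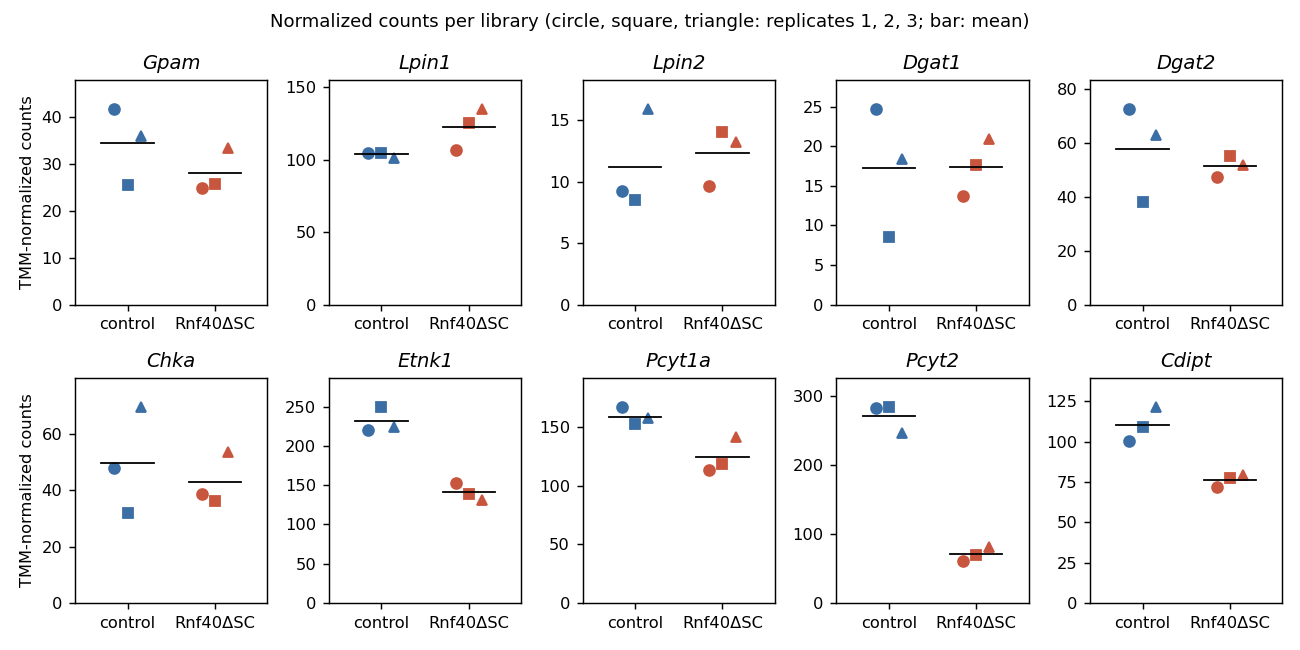
TMM-normalized counts of the 10 enzyme genes (vertical axis, from 0) in control and Rnf40ΔSC nerves; symbols stand for replicates 1, 2 and 3 and bars for group means. The groups separate downwards for *Etnk1*, *Pcyt1a*, *Pcyt2* and *Cdipt* and upwards for *Lpin1*, and overlap for the other 5.

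**Figure D3:**
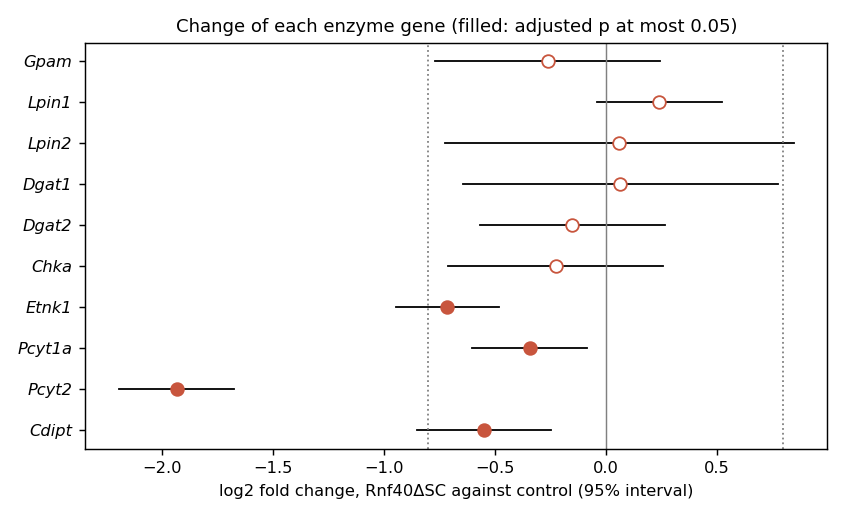
Log2 fold change of each enzyme gene, Rnf40ΔSC against control (horizontal axis), with its 95% confidence interval from edgeR's fit over 3 libraries per genotype; filled points have an adjusted p of at most 0.05 and dotted lines mark 0.8 in either direction. *Pcyt2* lies at -1.94, apart from the other 9, of which *Lpin1* (0.24) lies farthest to the right; with total-count scaling every point moves right by about 0.27, which takes *Gpam*, *Dgat2* and *Chka* above 0.

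Glycerol 3-phosphate is acylated at the outer mitochondrial membrane by the product of *Gpam*. It had 41.7, 25.4 and 36.0 normalized counts in control and 24.9, 25.8 and 33.4 in Rnf40ΔSC replicates 1 to 3. The groups overlapped, as control replicate 2 was as low as the lowest Rnf40ΔSC libraries. Its log2 fold change was -0.26, with a 95% confidence interval from -0.77 to 0.24 and an adjusted p of 0.46 by edgeR with Benjamini-Hochberg adjustment. It had 22 to 43 raw counts per library.

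Of 3 genes tested for the supply of its substrate 2 fell and 0 rose, where 16.2% of all genes tested fell. *Gpd1*, whose product reduces dihydroxyacetone phosphate to glycerol 3-phosphate, had 378, 364 and 395 normalized counts in control and 108, 150 and 185 in Rnf40ΔSC replicates. All Rnf40ΔSC libraries lay below the controls, replicate 3 highest among them. The log2 fold change of *Gpd1* was -1.36 (SE 0.14, adjusted p = 1.57e-07 by edgeR with Benjamini-Hochberg adjustment). Its relative *Gpd1l* followed at -0.78, and glycerol kinase (*Gyk* in the files) had a value of -0.15 without passing the test. *Gpd1* is also strongly expressed in fat and muscle, whose marker sums are given above; their part in its fall was not tested. In the annotation, 13.0% of the exon bases of *Gpd1* are shared with an antisense gene.

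Of 7 other acyltransferase genes tested on the way to phosphatidate, 4 fell and 0 rose, beside 16.2% and 15.4% of all genes. With total-count scaling 0 of 7 fell and 1, *Agpat6*, rose, beside 880 and 3766 of all 11371 genes. *Agpat4* fell by 0.94 on the log2 scale (SE 0.30, adjusted p = 0.0152 by edgeR with Benjamini-Hochberg adjustment), from 34.0, 25.4 and 24.3 normalized counts in control to 14.5, 12.9 and 14.7 in Rnf40ΔSC libraries. Its adjusted p by edgeR was 0.0743 without control replicate 1 and 0.0735 with total-count scaling, and DESeq2 gave 0.0682 without and 0.0672 with a fold-change prior (range over all alternatives 0.00839 to 0.129). *Agpat1*, *Agpat2* and *Agpat3* had log2 fold changes of -0.42, -0.50 and -0.41, and adjusted p-values by edgeR of 0.265, 0.348 and 0.271 with total-count scaling (ranges over all alternatives 0.00169 to 0.265, 0.0155 to 0.348 and 0.000953 to 0.271). The call of *Agpat2* was lost without control replicate 1 or 3, with adjusted p-values of 0.124 and 0.203 by edgeR, and without Rnf40ΔSC replicate 1 or 2, with 0.145 and 0.0538. The largest positive value was that of *Agpat5*, 0.14, which did not pass the test.

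Phosphatidate is dephosphorylated to diacylglycerol by lipins, which also act as transcriptional coactivators. *Lpin1* had 105, 105 and 101 normalized counts in control and 107, 125 and 135 in Rnf40ΔSC replicates 1 to 3. All Rnf40ΔSC libraries lay above all controls, replicate 1 by the smallest step. The log2 fold change was 0.24 (SE 0.14, 95% confidence interval -0.041 to 0.52, adjusted p = 0.193 by edgeR with Benjamini-Hochberg adjustment). With total-count scaling it was 0.51, with an adjusted p of 0.00382 by edgeR (range over all alternatives 0.00382 to 0.436).

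*Lpin2* was close to the limit of detection, with 6, 8 and 19 reads in the controls and 12, 12 and 17 reads in Rnf40ΔSC replicates. The groups overlapped, and the 95% confidence interval of its log2 fold change ran from -0.73 to 0.85. The raw-count ratio of *Lpin1* to *Lpin2*, which needs no scaling between libraries, was 11.3, 12.4 and 6.37 in control and 11.1, 8.92 and 10.2 in Rnf40ΔSC libraries. These ratios overlapped as well (two-sided exact permutation p = 1, where 3 against 3 libraries cannot give less than 0.1). Of *Lpin3* and the genes for the lipin phosphatase, *Ctdnep1* and *Cnep1r1*, 0 of 3 passed edgeR's test by adjusted or unadjusted p, or DESeq2; *Lpin3* had a log2 fold change of -0.35 and *Cnep1r1* of 0.074. With total-count scaling *Cnep1r1* was called higher, with a log2 fold change of 0.35 and an adjusted p of 0.0361 by edgeR (range over all alternatives 0.0361 to 0.967).

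Triglyceride is formed by diacylglycerol acyltransferases, encoded by the unrelated genes *Dgat1* and *Dgat2*. *Dgat2* had 72.5, 38.1 and 62.7 normalized counts in control and 47.5, 55.1 and 52.0 in Rnf40ΔSC libraries. The Rnf40ΔSC libraries lay inside the control range, and the log2 fold change was -0.15 with a 95% confidence interval from -0.57 to 0.26. With each library left out in turn this fold change ran from -0.38 to -0.00085. *Dgat1* was read 16, 8 and 22 times in the controls and 17, 15 and 27 times in Rnf40ΔSC libraries. These overlapped too, with a log2 fold change of 0.064 and an interval from -0.65 to 0.77. Neither gene passed edgeR's test, by adjusted or unadjusted p, or DESeq2. The raw-count ratio of *Dgat2* to *Dgat1* ran from 2.94 to 4.50 in control and from 2.48 to 3.47 in Rnf40ΔSC libraries (two-sided exact permutation p = 0.5). Of the genes for an alternative route from monoacylglycerol, *Mogat1* had 0 counts in every library and *Mogat2* at most 2, so that neither was tested.

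Of 8 genes tested for the storage and breakdown of triglyceride, 2 fell and 0 rose, beside 16.2% and 15.4% of all genes. *Abhd5*, the coactivator of adipose triglyceride lipase, had 131, 149 and 144 normalized counts in control and 82.9, 56.2 and 72.9 in Rnf40ΔSC replicates. No library overlapped, and its log2 fold change was -0.99 (SE 0.15, adjusted p = 2.02e-06 by edgeR with Benjamini-Hochberg adjustment). *Plin3*, a coat protein of lipid droplets, had a log2 fold change of -0.74. *G0s2*, an inhibitor of the same lipase, had the largest positive value, 0.22, without passing the test. Of the adipocyte markers described above, 5 of 9 fell too, and their part in these values was not tested.

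Ethanolamine enters the Kennedy pathway through ethanolamine kinase, for which *Etnk1* codes (chromosome 6, 143115750 to 143157062 on the plus strand of mm9). *Etnk1* had 221, 249 and 223 normalized counts in control and 153, 138 and 131 in Rnf40ΔSC replicates. The highest Rnf40ΔSC library was well below the lowest control. This gave a log2 fold change of -0.72 (SE 0.11, adjusted p = 5.03e-06 by edgeR with Benjamini-Hochberg adjustment), which ranged from -0.82 to -0.45 under all alternatives.

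Choline kinase alpha, encoded by *Chka*, takes the same step for choline. *Chka* had 47.8, 31.8 and 69.4 normalized counts in control and 38.6, 36.3 and 53.5 in Rnf40ΔSC replicates. The control libraries spread over more than the whole Rnf40ΔSC range. The log2 fold change was -0.23, with a 95% confidence interval from -0.71 to 0.26 and an adjusted p of 0.506 by edgeR with Benjamini-Hochberg adjustment; it was 0.15 without control replicate 3 and 0.042 with total-count scaling. The raw-count ratio of *Etnk1* to *Chka* was 4.61, 7.83 and 3.22 in control and 3.96, 3.81 and 2.45 in Rnf40ΔSC libraries. The ranges overlapped (two-sided exact permutation p = 0.4, with 0.1 the smallest possible).

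The next enzymes, the cytidylyl transferases, are held to set the pace of their branches. *Pcyt2* (chromosome 11, 120471401 to 120479250 on the minus strand of mm9) codes for the ethanolamine enzyme and had 282, 284 and 247 normalized counts in control and 61.2, 69.1 and 80.7 in Rnf40ΔSC replicates. The genotypes were separated by a wide gap, with the lowest control at 247 and the highest Rnf40ΔSC library at 80.7. The means were 271 ± 21.0 and 70.3 ± 9.81 (SD, n = 3 each). The log2 fold change was -1.94 (SE 0.13, adjusted p = 4.88e-15 by edgeR with Benjamini-Hochberg adjustment), between -2.05 and -1.67 under all alternatives. Only 68 of the 11371 genes tested had a lower log2 fold change. In Rnf40ΔSC replicate 3 alone, the library with muscle markers in the control range, it was -1.74 against the controls.

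*Pcyt1a* (chromosome 16, 32431007 to 32475156 on the plus strand of mm9) codes for the major choline enzyme. It had 167, 153 and 157 normalized counts in control and 113, 118 and 141 in Rnf40ΔSC replicates. The groups did not overlap, but Rnf40ΔSC replicate 3 came close to control replicate 2. The log2 fold change was -0.34 (SE 0.13, adjusted p = 0.0357 by edgeR with Benjamini-Hochberg adjustment). This call was lost without control replicate 1, 2 or 3, with adjusted p-values by edgeR of 0.101, 0.0584 and 0.0928, and without Rnf40ΔSC replicate 1 or 2, with 0.183 and 0.0943. DESeq2 gave an adjusted p of 0.134 with and without its prior, and total-count scaling in edgeR gave 0.684, the highest of a range that began at 0.00949.

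Because both cytidylyl transferase genes were read in the same libraries, their ratio is free of scaling. There were 1.69, 1.86 and 1.57 raw counts of *Pcyt2* for each of *Pcyt1a* in control and 0.539, 0.584 and 0.571 in Rnf40ΔSC replicates. The ratio thus reversed from an excess of *Pcyt2* reads in all controls to a deficit in all Rnf40ΔSC libraries. It differed by -1.59 on the log2 scale, with a two-sided exact permutation p of 0.1, the smallest that 3 against 3 libraries allow, and 0.4 after Benjamini-Hochberg adjustment over 4 ratios of related members. The 95% confidence intervals of the log2 fold changes, -2.20 to -1.68 for *Pcyt2* and -0.60 to -0.086 for *Pcyt1a*, did not overlap.

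The promoters of the genes for these steps are shown because *Etnk1* and *Pcyt1a* were called lower and *Chka* was not called. The call of *Pcyt1a* held in only 5 of 14 alternatives. RefSeq promoters of GRCm38.p6 were at hand for 6 of the 10 genes, *Gpam*, *Lpin1*, *Lpin2*, *Chka*, *Etnk1* and *Pcyt1a*, and not for *Dgat1*, *Dgat2*, *Pcyt2* and *Cdipt*. The 250 bases before each start were searched on both strands for TCACNCCAC (a sterol regulatory element), GCGNGGGCG (the Egr family), CACGTG (an E-box) and CCAAT (NF-Y), which do not contain each other. Of all 32851 promoters, 1.05% hold the first, 4.70% the second, 6.02% the third and 33.9% the last of these. Capitals mark matches. The windows lie on the plus strand at chr16:32430671-32430920 for *Pcyt1a* (the first of its starts), chr6:143166980-143167229 for *Etnk1* and chr19:3851523-3851772 for *Chka*.
Pcyt1a: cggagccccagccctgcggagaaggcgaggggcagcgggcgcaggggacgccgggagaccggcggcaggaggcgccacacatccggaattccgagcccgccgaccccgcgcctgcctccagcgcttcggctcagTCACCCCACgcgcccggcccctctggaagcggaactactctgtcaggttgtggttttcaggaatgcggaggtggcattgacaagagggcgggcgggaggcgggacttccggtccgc
Etnk1: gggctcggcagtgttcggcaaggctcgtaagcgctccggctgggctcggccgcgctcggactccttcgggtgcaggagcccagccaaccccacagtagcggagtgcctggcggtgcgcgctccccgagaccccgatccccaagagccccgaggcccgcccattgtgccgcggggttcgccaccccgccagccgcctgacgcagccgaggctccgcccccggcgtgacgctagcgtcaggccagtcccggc
Chka: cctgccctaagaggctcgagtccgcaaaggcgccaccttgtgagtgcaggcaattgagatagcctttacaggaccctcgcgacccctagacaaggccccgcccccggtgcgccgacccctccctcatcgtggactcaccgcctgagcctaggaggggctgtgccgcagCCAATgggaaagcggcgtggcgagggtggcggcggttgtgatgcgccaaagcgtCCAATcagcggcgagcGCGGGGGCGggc
*Pcyt1a* holds TCACCCCAC, which matches the sterol regulatory element, 116 bases before its first start. The same letters lie 215 bases before start 2, and the window of start 3 holds no match. *Chka* holds CCAAT 82 and 28 bases before its start and GCGGGGGCG, an Egr match, 12 bases before it. In *Etnk1* none of these letters occur in the window, and the same was true of *Lpin1*. *Lpin2* has Egr, E-box and CCAAT matches spread over its starts, and *Gpam* has 1 CCAAT match, 74 bases before its first start. A match describes the letters only.

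Of 6 other genes tested in these branches 3 fell and 0 rose, beside 16.2% and 15.4% of all genes. With total-count scaling 2 fell and 1 rose, beside 880 and 3766 of all 11371 genes. *Ept1* (now *Selenoi*), whose product transfers phosphoethanolamine to diacylglycerol, had 194, 189 and 212 normalized counts in control and 101, 101 and 99.3 in Rnf40ΔSC replicates. No library overlapped, and the fall was -0.99 on the log2 scale (SE 0.12, adjusted p = 4.35e-08 by edgeR with Benjamini-Hochberg adjustment). *Chpt1*, which performs the same step with choline, had 140, 120 and 133 normalized counts in control and 82.1, 78.5 and 66.7 in Rnf40ΔSC replicates. These did not overlap either, with a log2 fold change of -0.79 (SE 0.15, adjusted p = 5.45e-05 by edgeR with Benjamini-Hochberg adjustment). *Pcyt1b*, a second choline cytidylyl transferase gene, had a log2 fold change of -0.63, with an adjusted p of 0.0682 by edgeR under total-count scaling (range over all alternatives 0.0015 to 0.0682). *Cept1*, whose product accepts either head group, had a log2 fold change of -0.066 with a 95% confidence interval from -0.38 to 0.25, and 0.20 with total-count scaling. In the annotation, 24.7% and 3.53% of the exon bases of *Cept1* are shared with *Dennd2d* and *Dram2* on the opposite strand. *Pemt*, which methylates phosphatidylethanolamine to phosphatidylcholine, had 1 to 13 raw counts per library and a log2 fold change of 0.91 without passing the test; with total-count scaling it was 1.18, with an adjusted p of 0.045 by edgeR (range over all alternatives 0.045 to 0.459).

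Over the 14 alternatives, *Etnk1*, *Pcyt2*, *Ept1* and *Chpt1* were called lower in all, *Pcyt1b* in 13, *Pcyt1a* in 5, and *Chka* and *Cept1* in none. Whether the ethanolamine and choline branches changed to a different degree was not tested.

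Raw-count ratios to *Sox10* were also taken for the 4 members called, after the values had been seen. *Pcyt2* was lower relative to *Sox10* in all Rnf40ΔSC libraries than in any control (log2 difference -1.17), *Cdipt* and *Pcyt1a* were higher in all (0.25 and 0.43), and *Etnk1* overlapped (0.070). The two-sided exact permutation p was 0.1 for *Pcyt2*, *Cdipt* and *Pcyt1a* and 0.5 for *Etnk1*, or 0.133 and 0.5 after Benjamini-Hochberg adjustment over these 4 ratios. The direction depends on the reference, since *Sox10* itself fell by 0.79 and the 5 Schwann cell markers reported ran from -1.20 to 0.36; these ratios do not measure the share of Schwann cell RNA.

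Phosphatidylinositol is made from CDP-diacylglycerol and inositol by the product of *Cdipt* (chromosome 7, 134119863 to 134124013 on the plus strand of mm9). *Cdipt* had 100, 109 and 121 normalized counts in control and 71.6, 77.3 and 79.1 in Rnf40ΔSC replicates. The highest Rnf40ΔSC library remained below the lowest control. A log2 fold change of -0.55 resulted (SE 0.15, adjusted p = 0.00419 by edgeR with Benjamini-Hochberg adjustment). It was -0.47 without control replicate 3, with an adjusted p of 0.0506 by edgeR, and -0.28 with total-count scaling, with 0.137 (range over all alternatives 0.00425 to 0.137).

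The other 6 genes tested around CDP-diacylglycerol, for its synthesis and for cardiolipin, gave 0 calls by edgeR's adjusted p and by DESeq2, and 1 by unadjusted p. That gene was *Ptpmt1*, a phosphatase of cardiolipin synthesis, with a log2 fold change of -0.45 and an adjusted p of 0.0834 by edgeR with Benjamini-Hochberg adjustment (0.0226 without control replicate 3; range over all alternatives 0.0226 to 0.501). It had 89.5, 68.8 and 50.2 normalized counts in control and 53.1, 43.3 and 50.4 in Rnf40ΔSC replicates, which overlapped. In the annotation, 16% and 6.64% of the exon bases of *Ptpmt1* are shared with *Gm17661* and *Kbtbd4* on the opposite strand. *Tamm41*, the mitochondrial CDP-diacylglycerol synthase gene, had 3 to 13 raw counts per library and a log2 fold change of -0.0076.

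Taking the wider pathway list of 47 other genes, 41 were tested, of which 16 fell, 1 rose and 24 were not called, where 16.2% of all genes tested fell and 15.4% rose. Their median log2 fold change was -0.32, against -0.0026 for all genes tested. This list was also chosen with earlier results of these data known, so that the comparison is descriptive. With total-count scaling 8 fell and 6 rose, beside 880 and 3766 of all 11371 genes. Without Rnf40ΔSC replicate 3 the number that rose was 2. By the limits of the study 7 fell and 1 rose, where 4.99% and 3.65% of all genes did.

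**Figure D4:**
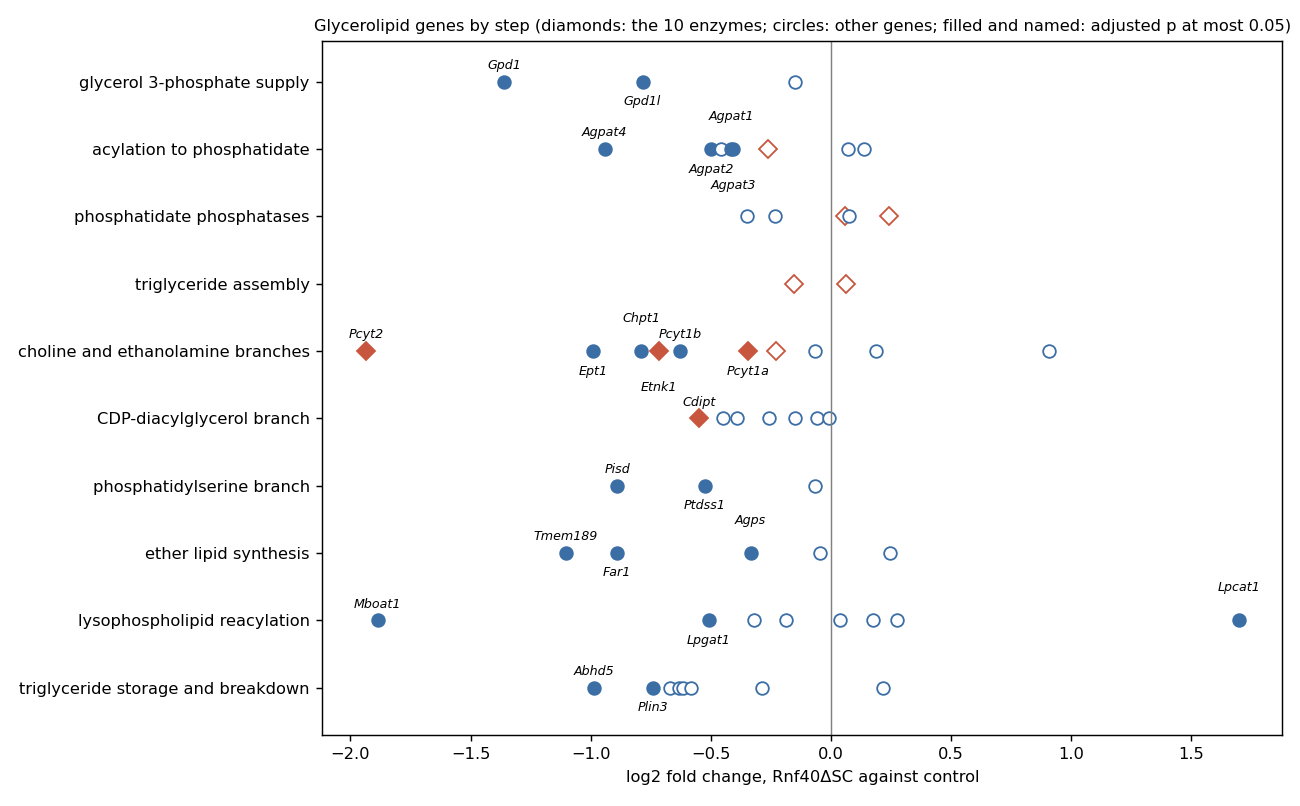
Log2 fold change, Rnf40ΔSC against control (horizontal axis), of every tested glycerolipid gene, grouped by step; diamonds are the 10 enzyme genes, circles other genes, and filled, named symbols have an adjusted p of at most 0.05 by edgeR. *Pcyt2* (-1.94) and *Mboat1* (-1.89) lie farthest to the left and *Lpcat1* (1.70) farthest to the right; with total-count scaling all points move right by about 0.27.

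The other change of nearly the same size as that of *Pcyt2* lay in lysophospholipid reacylation. Of 8 genes tested there 2 fell and 1 rose, beside 16.2% and 15.4% of all genes. With total-count scaling 1 fell and 3 rose, beside 880 and 3766 of all 11371 genes. *Mboat1*, for an enzyme that adds acyl chains to lysophosphatidylethanolamine and lysophosphatidylserine, had 372, 455 and 362 normalized counts in control and 122, 99.6 and 98.5 in Rnf40ΔSC replicates. All Rnf40ΔSC libraries lay far below the controls, with a log2 fold change of -1.89 (SE 0.12, adjusted p = 8.07e-16 by edgeR with Benjamini-Hochberg adjustment). *Lpcat1*, for an enzyme that acylates lysophosphatidylcholine, went the opposite way, from 75.6, 75.2 and 66.1 normalized counts in control to 205, 253 and 244 in Rnf40ΔSC libraries. The rise was 3.25-fold and present in all 3 libraries, with a log2 fold change of 1.70 (SE 0.13, adjusted p = 4.77e-13 by edgeR with Benjamini-Hochberg adjustment).

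Ether lipids, the class that includes plasmalogens, need several further enzymes, and 3 of 5 genes tested fell, beside 16.2% of all genes. *Far1*, which supplies the fatty alcohol, had 434, 464 and 431 normalized counts in control and 252, 246 and 219 in Rnf40ΔSC replicates. No library overlapped, and the log2 fold change was -0.89 (SE 0.10, adjusted p = 3.62e-09 by edgeR with Benjamini-Hochberg adjustment). *Tmem189* (now *Peds1*), for the desaturase that makes the plasmalogen bond, had 872, 985 and 871 normalized counts in control and 419, 404 and 445 in Rnf40ΔSC replicates. This was lower in all 3 libraries, by a log2 fold change of -1.10, but 70.7% of its annotated exon bases are shared with its neighbour *Ube2v1* and the rest with another entry of the same name, so that its counts are uncertain. *Dhrs7b*, for the reduction of acyl-dihydroxyacetone phosphate, had a log2 fold change of 0.25 without passing the test. *Agps*, for the enzyme that forms the ether bond, had a log2 fold change of -0.33 and an adjusted p of 0.0298 by edgeR with Benjamini-Hochberg adjustment (range over all alternatives 0.0148 to 0.709); its call was lost under 8 of 14 alternatives, total-count scaling and DESeq2 among them.

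In the phosphatidylserine branch 2 of 3 genes fell, beside 16.2% of all genes. With total-count scaling 1 of 3 fell, beside 880 of all 11371 genes. *Pisd*, for the mitochondrial decarboxylase that turns phosphatidylserine into phosphatidylethanolamine, had 136, 89.0 and 134 normalized counts in control and 67.6, 49.2 and 72.9 in Rnf40ΔSC replicates. The groups did not overlap, with a log2 fold change of -0.89 (SE 0.17, adjusted p = 9.81e-05 by edgeR with Benjamini-Hochberg adjustment), although 30.3% of its exon bases are shared with another annotated gene on the same strand. *Ptdss1*, which makes phosphatidylserine from phosphatidylcholine, had a log2 fold change of -0.52. Without control replicate 2 it was -0.38, with an adjusted p of 0.077 by edgeR. With total-count scaling it was -0.25, with an adjusted p of 0.147 by edgeR (range over all alternatives 0.00136 to 0.147). *Ptdss2*, which makes it from phosphatidylethanolamine, had a value of -0.064 without passing the test.

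Compared in CPM per kilobase of merged exon, where CPM are counts scaled by the TMM-corrected library size, the level of *Pcyt2* was the highest of the 10 genes in control, at 33.3 ± 2.58 (SD, n = 3), followed by *Cdipt* at 31.4 ± 3.00. These levels overlapped. *Etnk1* came next at 19.2 ± 1.29 per kilobase, below *Cdipt* in every library, and then *Pcyt1a* at 14.7 ± 0.669, below *Etnk1* in every library. *Dgat2* at 13.7 ± 4.20 could not be separated from *Pcyt1a* or from *Lpin1* at 9.66 ± 0.197. The levels of *Dgat1*, *Gpam* and *Chka*, 3.00, 2.89 and 2.20 per kilobase, were lower than that of *Lpin1* and overlapped among themselves, and *Lpin2* was lowest at 0.489 ± 0.178.

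In Rnf40ΔSC nerves *Cdipt* led at 21.6 ± 1.11 per kilobase (SD, n = 3), above every other gene in all 3 libraries. *Dgat2*, *Etnk1*, *Pcyt1a* and *Lpin1* followed with overlapping levels of 12.2, 11.7, 11.5 and 11.4. *Pcyt2* was in place 6, at 8.63 ± 1.20, below *Lpin1* in every library and above *Dgat1*. The order of the remaining 4 genes was the same as in control, with levels of 3.04 for *Dgat1*, 2.36 for *Gpam*, 1.90 for *Chka* and 0.536 for *Lpin2*. Lengths come from all annotated exons, so that a gene expressed in a short form has a higher true level.

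**Figure D5:**
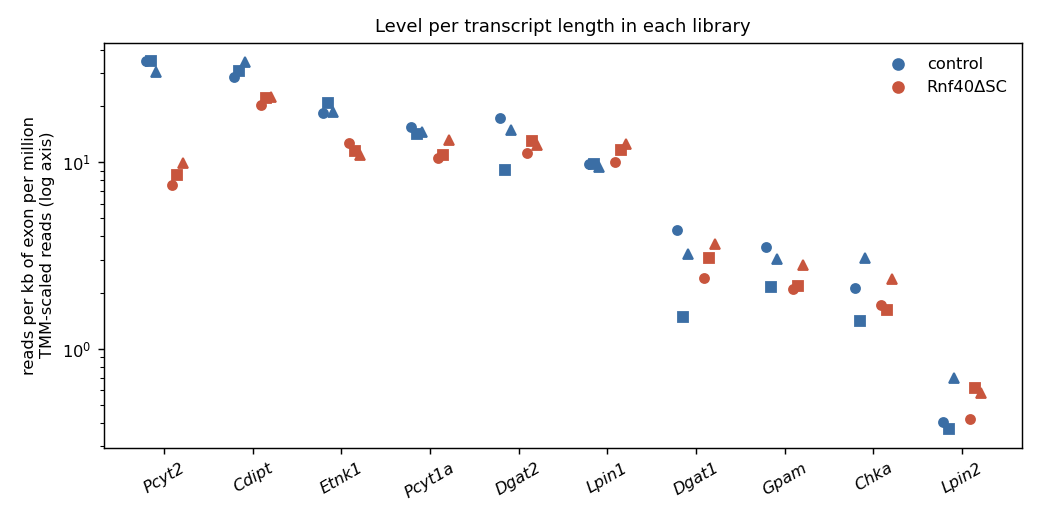
Level of each enzyme gene in CPM (after TMM) per kilobase of exon (vertical log axis) in control and Rnf40ΔSC libraries, with symbols for replicates 1, 2 and 3 and genes ordered by their control mean. *Pcyt2* drops from 33.3 to 8.63, and *Lpin2* is lowest in both genotypes at 0.489 and 0.536.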

How the data were processed

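RNA-Seq counts of 6 libraries, 3 per genotype, were analysed. The authors aligned the reads to mm9, used HTSeq to assign them to genes, and deposited the resulting raw counts, which are not normalized. The submitters' notes list mm9 and mm10, and their library kit (NEB Next Ultra) differs from the directional kit of the methods. The strand setting and gene annotation of the counting were not given in the sources used here, so that genes with overlapping exons are uncertain.

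Differential expression was tested with edgeR 4.0.16 under R 4.3.3 (filterByExpr, TMM, robust quasi-likelihood model of genotype alone, Benjamini-Hochberg adjustment over 11371 genes). The main threshold was an adjusted p of 0.05. Normalized counts are counts scaled to the geometric mean of the TMM-corrected library sizes. Intervals are 95% confidence intervals from the fit. Ratios of raw counts were compared on the log2 scale by exact permutation tests. Replicate libraries differed by more than sampling noise, their chi-square divided by its degrees of freedom lying between 1.78 and 5.21. Gene coordinates and exon lengths come from GENCODE vM1 on mm9, and promoters from RefSeq on GRCm38.p6. Proteins were not analysed here. Scripts were tested on simulated data, and figures were drawn with matplotlib 3.10.9.

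Alternatives were RLE or total-count scaling, DESeq2 1.42.0 with and without its fold-change prior, no filter or at least 10 counts in every library, a replicate block, each library left out, other limits, and, added after seeing the data, the controls against Rnf40ΔSC replicate 3 alone. The members and gene lists were chosen with earlier results of these data known. Genes named were the 10 members, *Rnf40*, other pathway and neighbouring genes past the limits of the study, the largest rise and fall of each list, and from each marker list the most abundant gene and genes at 0. Other called genes, *Agpat6*, *Cept1*, *Ctdnep1*, *Mogat1*, *Mogat2*, *Slc44a3*, *Slc44a4*, *Slc44a5*, *Slc5a7*, *Sox10* and *Egr2* were named after their values were seen. Of the Schwann cell marker list, 2 genes are withheld from this report, by request and not by their values, and the list's counts and sums leave them out.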

Additional observations from a re-analysis of the deposited data

How the results depend on the processing

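Of 598 values of 43 named genes under the alternatives, 513 kept their direction and side of the threshold, 50 lost and 4 gained a call, and 31 changed sign, all of them among genes that had not been called; except where stated, the cause was not tested. With total-count scaling, which shifts the median of all genes by 0.27 and the share of lower among all calls from 51.2% to 18.9%, members called lower numbered 2 and higher 1, pathway genes lower 8 and higher 6. Under it log2 fold changes turned positive for *Gpam* (0.0056), *Dgat2* (0.11), *Chka* (0.042), *Gyk* (0.12), *Tamm41* (0.26), *Ptdss2* (0.20), *Cept1* (0.20) and *Slc44a1* (0.12), by the construction of the scaling. With each library left out in turn, members called lower ranged from 2 to 4 and pathway genes higher from 1 to 2. Fold changes that changed sign then ran from -0.12 to 0.46 for *Lpin2*, -0.27 to 0.33 for *Dgat1*, -0.48 to 0.15 for *Chka*, -0.48 to 0.11 for *Gyk*, -0.0098 to 0.18 for *Cnep1r1*, -0.33 to 0.35 for *Tamm41*, -0.43 to 0.18 for *Ptdss2*, -0.21 to 0.12 for *Cept1* and -0.049 to 0.50 for *G0s2*. With the controls against Rnf40ΔSC replicate 3 alone, chosen after seeing the data and assuming that this library varies like the controls, 2 members were called lower (*Etnk1* and *Pcyt2*), 2 by the limits of the study as well, and *Chka* (0.070), *Tamm41* (0.18) and *G0s2* (-0.19) changed sign. Members past the limits numbered 3 when a log2 fold change of 0.5 sufficed, and 1 without a minimum base mean. *Agpat2*, *Agps* and *Lpgat1* each lost their call under 8 of 14 alternatives, DESeq2 among them. Same-numbered libraries of the genotypes did not deviate together (correlations -0.098, -0.020 and -0.057), and the fit with a replicate block called 4 members lower and 0 higher, 1 past the limits, and 16 pathway genes lower and 1 higher. At least 10 counts in every library left 8 of the 10 members, without *Lpin2* and *Dgat1*. Among the 10 members *Lpin2* and *Dgat1* had the fewest raw counts, as few as 6 and 8.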

Other observations

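Choline and ethanolamine reach the Kennedy pathway through transporters. Of 8 such genes listed, 6 were matched in the count files and 2 had enough reads to be tested. *Flvcr1* and *Flvcr2* were not found under the symbols searched and were not assessed. *Slc44a1*, a choline transporter gene, had 616, 713 and 683 normalized counts in control and 605, 601 and 608 in Rnf40ΔSC replicates. All Rnf40ΔSC libraries lay just below the controls, with a log2 fold change of -0.15 (SE 0.091, adjusted p = 0.218 by edgeR with Benjamini-Hochberg adjustment), or 0.12 with total-count scaling. Its relative *Slc44a2* had 307, 312 and 317 normalized counts in control and 247, 203 and 271 in Rnf40ΔSC replicates. It fell by 0.37 on the log2 scale (SE 0.11, adjusted p = 0.00696 by edgeR with Benjamini-Hochberg adjustment). With total-count scaling the fall was 0.10 and the adjusted p by edgeR 0.488 (range over all alternatives 0.000804 to 0.488). The call was also lost without Rnf40ΔSC replicate 2 and with Rnf40ΔSC replicate 3 alone, with adjusted p-values of 0.0686 and 0.282 by edgeR. *Slc44a3*, *Slc44a4*, *Slc44a5* and *Slc5a7* had at most 4 raw counts in any library.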
